A study of Homo sapiens with 6 samples.

Results

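Processed pseudogenes of ribosomal proteins are copies of ribosomal protein mRNAs that were reverse transcribed and inserted back into the genome. They lack the introns of the gene they came from, the parent gene, and most carry changes that break the reading frame. Because the parents are among the most abundant mRNAs of a growing cell and the copies are close to them in sequence, short reads of a parent mRNA can align equally well to its pseudogenes, and a count for such a locus can be made of reads from either. The members described here are the genes annotated as processed pseudogenes whose symbol names a ribosomal protein gene followed by P and a number, and whose mean count over the 6 libraries was 50 or more. They were 89 of 501 genes with such a symbol, of 4201 processed pseudogenes and of 30270 genes in the deposited table. The members were chosen by their mean count, so their levels are given as a description, whereas the comparison of the groups was not used in the choice.

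The counts came from total RNA of HEK 293T, an established line derived from human embryonic kidney that carries the SV40 large T antigen, after depletion of ribosomal RNA. There were 3 WT libraries and 3 libraries of cells labelled as a TENT3A/B double knockout with no further treatment, called ΔTUT4/7 in the study. TENT3A/B is another name for TUT4 and TUT7, which uridylate the 3′ ends of RNAs. The knockout was 1 cell line received from another laboratory, so p-values measure the spread between libraries of 1 line per genotype. The question put to these genes was whether they changed between the groups, and whether they changed apart from their parents.

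Library totals ran from 18757228 to 33148937 counts. The members held 0.742% to 0.844% of the counts of a library and the 85 cytosolic ribosomal protein genes 3.06% to 3.31%. Of the targeted genes, TUT7 fell from 62.6 ± 2.17 CPM (counts scaled to library size; SD, n = 3) in WT to 26.3 ± 1.04 in the libraries labelled ΔTUT4/7, whereas TUT4 was higher there, at 906 ± 21.4 against 211 ± 5.08 CPM. The level of TUT4 therefore goes against the label as far as its transcript count is concerned, and every direction below is that of the libraries as labelled. WT replicate 3 stood apart from the other WT libraries: over 15 of the members its CPM was more than 1.5 times above or below the mean of WT replicates 1 and 2, with 12 above and 3 below, against 1 and 0 of the 41 parents.

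The degree to which a member could be told from its parent was read from the hg38 sequence at the deposited coordinates. Each member was cut into all its windows of 76 bases, the read length, and the windows present in the parent's GENCODE release 44 transcripts were counted. Of the 89 members, 28 had no such window, 20 had up to 10%, 24 had 10 to 50% and 17 had over 50%. Without RPL7P21, which is described below, identity to the parent's canonical transcript ran from 79.0% upwards with a median of 96.2%. In 3 members, RPL21P16, RPL39P3 and RPS28P7, every window was in the parent, and in 25 members every window occurred nowhere else in the genome or in the parent. The sequences below show the range, from a member that no read could separate from its parent to one that nearly every read pair could. RPL39P3 and RPS4XP11 were chosen for their sequence, not by the rule for named genes. RPL5P12 is named by that rule.

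RPL39P3 (chr6:73373108-73373263, minus strand) is the whole coding sequence of RPL39, a small protein of the large subunit, and none of its 156 bases differs from the RPL39 transcript. Start and stop codons are in capitals.
RPL39P3: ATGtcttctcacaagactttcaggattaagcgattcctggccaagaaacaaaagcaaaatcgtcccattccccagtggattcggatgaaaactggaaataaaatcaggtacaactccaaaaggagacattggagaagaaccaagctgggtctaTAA

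RPS4XP11 shared no window with RPS4X, the X-linked gene of a small-subunit protein. In the 150 bases shown (chr10:32102978-32103127, minus strand, and bases 237 to 386 of the RPS4X transcript) 11 bases differ, in capitals, and the longest identical run is 54 bases. Read in the frame of its parent, this stretch of the member holds 1 stop codon and that of RPS4X holds 0.
RPS4XP11: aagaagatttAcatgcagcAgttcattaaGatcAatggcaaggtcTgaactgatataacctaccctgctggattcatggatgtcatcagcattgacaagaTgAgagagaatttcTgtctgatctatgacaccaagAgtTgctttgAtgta
RPS4X: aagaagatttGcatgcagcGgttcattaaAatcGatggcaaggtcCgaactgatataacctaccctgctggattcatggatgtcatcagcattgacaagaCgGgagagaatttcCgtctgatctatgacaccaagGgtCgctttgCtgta

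RPL5P12 is a copy of the gene for the 5S rRNA-binding protein RPL5, and its ratio to its parent differed between the groups. It reached the minimum only through the group in which it is high, so this difference is a description. Of the 150 bases shown (chr4:98025390-98025539, plus strand, and bases 81 to 230 of the RPL5 transcript) 12 differ, in capitals.
RPL5P12: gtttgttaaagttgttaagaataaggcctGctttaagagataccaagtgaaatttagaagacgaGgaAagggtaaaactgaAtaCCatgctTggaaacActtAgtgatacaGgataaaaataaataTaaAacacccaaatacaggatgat
RPL5: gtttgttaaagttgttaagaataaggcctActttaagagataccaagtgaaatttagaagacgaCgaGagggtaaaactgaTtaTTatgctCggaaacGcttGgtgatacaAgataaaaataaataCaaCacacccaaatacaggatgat

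Mean counts of the members ran from 51.4 to 15097, and the genes with the most counts were those that shared windows with their parent. The median mean count was 121 for the 28 members with no shared window, 456 for those with up to 10%, 2691 for those with 10 to 50% and 5053 for those with over 50%. Of the 37 members with a mean count over 1000, 30 had more than 10% of their windows in the parent. There were exceptions on both sides. RPS4XP11, shown above, had a mean count of 2132 with no shared window, and RPS28P7 had 63.2 with every window shared.

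**Figure D1:**
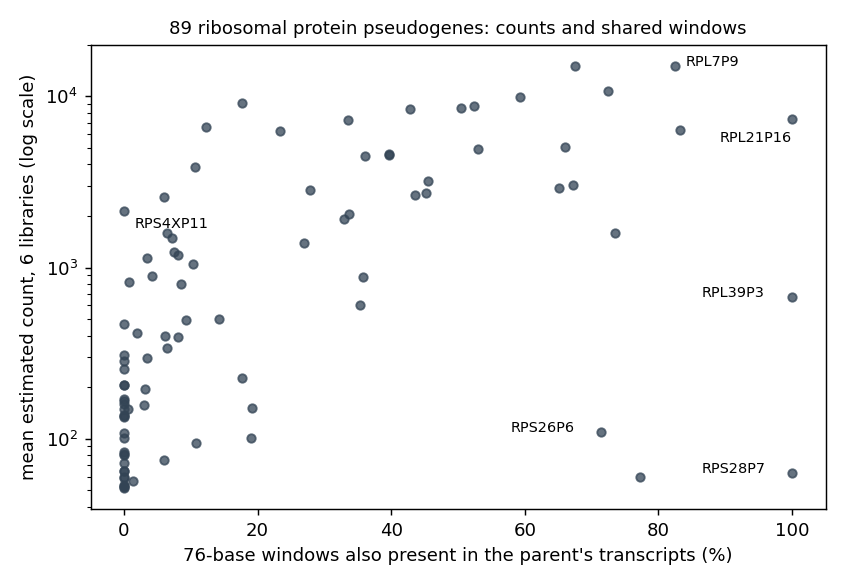
Mean estimated count over the 6 libraries (log scale) of each of the 89 members against the percentage of its 76-base windows that are also in the parent gene's transcripts. Most members over 1000 counts lie above 10% shared windows, while RPS4XP11 at 2132 counts lies at 0% and RPS28P7 at 63.2 counts lies at 100%.

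Most estimated counts of members were not whole numbers. An expectation-maximisation model can divide a read among the loci it fits, but the source of the fractions was not tested. Between 93.3% and 95.5% of the members' values in a library were further than 1e-09 from a whole number, against 45.2% to 49.95% of all values. In 4 members, RPL23AP64, RPL7P50, RPS15AP10 and RPL7P49, the counts were whole in all 6 libraries. None of the 4 shared a window with its parent, and each lay in an intron of a coding gene.

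The 8 members with the highest mean counts were RPL7P9, RPS3AP6, RPL3P4, RPL13AP5, RPL7AP30, RPS3AP26, RPS7P1 and RPS2P5, with mean counts from 8418 to 15097. They had 17.6% to 82.4% of their windows in the parent. In 7 members the mean count exceeded that of the parent itself. RPS3AP6 had 1.77 times the count of RPS3A, a small-subunit protein gene, and RPS3AP26 had 1.03 times. RPL21P16 had 1.99 times the count of RPL21, to which it is identical. Per kilobase of transcript, the parents had a median level of 395 CPM (range 9.48 to 1814) and the members a median of 38.5 CPM (range 2.79 to 1031).

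The RPL7 family showed the most uneven division. RPL7, a large-subunit protein gene on chromosome 8, had a mean count of only 393, whereas RPL7P9 (chr1:96678874-96679620) had 15097 and RPL7P1 (chr5:150094302-150095048, in an intron of CSF1R) had 5053. RPL7P9 differs from the RPL7 transcript by 2 aligned bases in 747, and RPL7P1 by 3. Per kilobase, RPL7 stood at 13.0 CPM and RPL7P9 at 823 CPM. Of the summed CPM of RPL7 and the 5 members that carry its symbol, 1.87% was given to RPL7. Added together, these 6 genes had 778, 853 and 846 CPM in WT replicates 1 to 3 and 849, 950 and 864 CPM in the libraries labelled ΔTUT4/7. These ranges overlapped.

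RPL7P21 (chr5:143332605-143333239, in an intron of NR3C1) carries an RPL7 symbol but was not a copy of the RPL7 transcript. No window of it was found in RPL7 and only 1.73% of it aligned. Instead, 163 of its 560 windows (29.1%) were in transcripts of RPL7L1, a gene for an RPL7-like protein. It had 11.6, 11.8 and 8.61 CPM in WT and 14.0, 17.1 and 14.2 CPM in the libraries labelled ΔTUT4/7, with no overlap (log2 fold change 0.51 ± 0.12 SE, adjusted p = 0.00143). RPL7L1 had 364 ± 14.5 and 455 ± 13.5 CPM (SD, n = 3; log2 fold change 0.32 ± 0.04 SE, adjusted p = 1.97e-06). RPL7P21 was singled out after its sequence had been examined.

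A full-length reading frame was kept by a minority of the copies. The longest reading frame from a start codon reached 95% or more of the parent's coding length in 23 of 89 members, 50 to 95% in 28 and under 50% in 38. Median mean counts of these classes were 2640, 484 and 201. Members with full-length frames included RPL7P9, RPS3AP6, RPL13AP5 and RPS7P1 among the 8 with the most counts. No protein was measured here.

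Between the groups, the members showed small changes in both directions. At FDR under 0.05, 19 of 89 (21.3%) were higher and 16 (18.0%) were lower in the libraries labelled ΔTUT4/7, against 28.6% higher and 29.0% lower of all 23952 genes tested, and 39.2% and 31.7% of the 15574 genes with as many counts. The shares of members called were thus below the background of all genes in both directions. A change of 2-fold or more was called for 2 members upwards and 4 downwards, against 5.90% and 12.4% of all genes. The groups did not overlap in CPM for 42 of 89 members, against 62.7% of all genes. The median log2 fold change was 0.07 over the members and -0.02 over all genes tested.

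The split of directions depended on the scaling. With library size alone 13 members were higher and 22 lower, and the median of the members was -0.041, while the median of all genes moved from -0.02 to -0.14. Upper-quartile factors gave 13 and 22 as well, and neither scaling left a member at 2-fold or more higher. Without ΔTUT4/7 replicate 3, 20 members were higher and 10 lower. Without WT replicate 3, the library that stood apart, the counts were 22 and 18. The number at 2-fold or more higher was 1 without WT replicate 1 or any 1 of the ΔTUT4/7 replicates. A member near the minimum could be chosen through a single group, and its group mean counts then had to differ, if only slightly. This held for 9 members with a mean count under 50 in 1 of the groups, of which 7 were called. RPL7P50, RPL32P29, RPS12P23 and RPS3AP34 reached the minimum through WT alone and RPL5P12, RPL7P49 and RPS4XP17 through the libraries labelled ΔTUT4/7 alone, so their differences are a description rather than a test. Among the 80 with both group means at 50 or more, 16 were higher and 12 lower, and 1 was higher and 0 lower by 2-fold or more.

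The 41 parents were called more often, with 18 higher and 11 lower and a median log2 fold change of 0.14. With library size alone, 10 parents were higher and 14 lower. Over all 85 cytosolic ribosomal protein genes, 39 were higher and 16 lower (median 0.16). Among the other 817 processed pseudogenes at or above the same minimum of 50 counts, 349 were higher and 106 lower (median 0.27). Whether these lists differ from the members was not tested.

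Called members mostly moved the way their parents did. Of the 35 members called, 34 had a parent that was also called, and 31 of these moved in the same direction as the parent. The 31 include RPL7P21, which has RPL7 as its parent by symbol alone, and this pair also enters the correlations below. RPL7P50, RPL32P29 and RPL5P34 moved against a called parent, and RPL7AP66 was called with a parent that was not. The 35 include 7 members that reached the minimum through a single group, RPL7P50 and RPL32P29 among them. Their directions are a description, and they also enter the correlations. A further 27 members were not called although their parent was. Across the 89 members the log2 fold changes of member and parent correlated with r = 0.574. By shared windows, r was 0.296 over the 28 members with no window in the parent, 0.762 over 20 with up to 10%, 0.775 over 24 with 10 to 50% and 0.856 over 17 with over 50%. These are descriptions across genes, which share the libraries and, through reads that fit both, part of their counts. The members with no shared window also had the lowest counts.

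**Figure D2:**
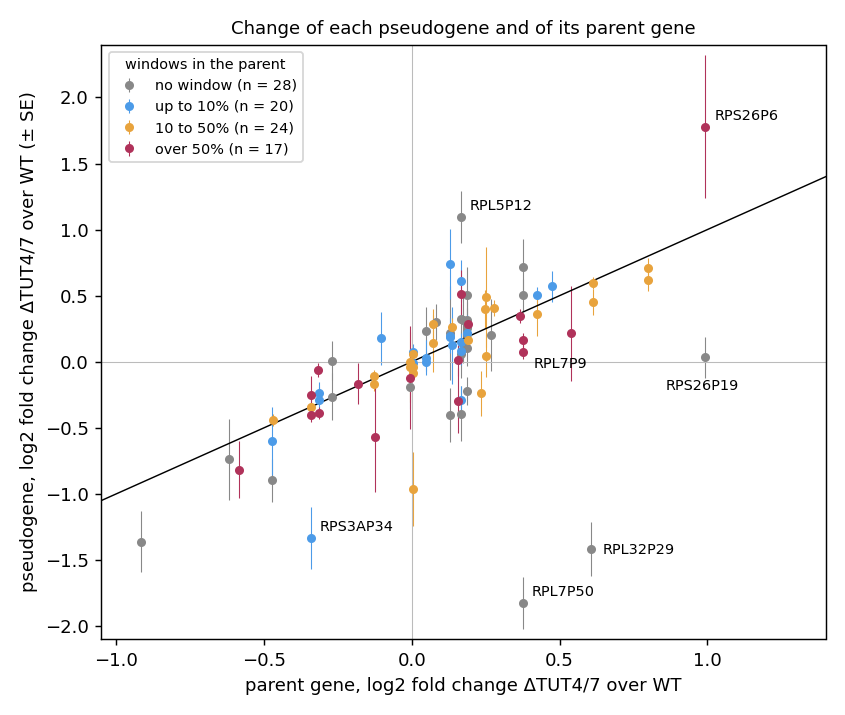
Log2 fold change of each of the 89 members (± SE, libraries labelled ΔTUT4/7 over WT, 3 libraries per group) against that of its parent gene, coloured by the percentage of the member's windows found in the parent. The line marks equal change, and most members lie near it. RPL7P50 at -1.83 and RPL32P29 at -1.42 lie far below it although their parents were higher. Both reached the minimum count through WT alone.

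Members close to highly expressed parents gave the plainest examples of parallel change. RPS3AP6 (chr15:59768352-59769146) had 664, 660 and 758 CPM in WT and 505, 538 and 533 CPM in the libraries labelled ΔTUT4/7. All 3 WT values were above all 3 others, and the log2 fold change was -0.40 ± 0.05 (SE; adjusted p = 1.28e-06), beside -0.34 ± 0.05 for RPS3A. RPL3P4 (chr14:98972879-98973301), a short copy of RPL3, which encodes a protein near the peptidyl transferase centre, had 497, 473 and 514 CPM in WT against 387, 379 and 368 CPM. It fell by 0.39 on the log2 scale (adjusted p = 1.41e-07) and RPL3 by 0.31 (adjusted p = 1.97e-05).

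RPS2P5 (chr12:118246084-118246962, in an intron of TAOK3) rose with RPS2, the gene of a small-subunit protein. It had 279, 272 and 271 CPM in WT and 434, 417 and 389 CPM in the libraries labelled ΔTUT4/7, and the groups did not overlap. The log2 fold change was 0.59 ± 0.05 (SE; adjusted p = 3.37e-10), against 0.61 ± 0.04 for RPS2. TAOK3, in which it lies, was also higher, with a log2 fold change of 0.88. RPS7P1 (chr17:28467822-28468406), a copy of the small-subunit gene RPS7, had 330, 297 and 315 CPM in WT and 400, 392 and 354 CPM in the others. Its log2 fold change was 0.29 ± 0.05 (adjusted p = 6.65e-05), against 0.19 for RPS7.

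Of the 8 members with the highest counts, the other 4 did not pass the test. RPL7P9 had 555, 610 and 631 CPM in WT and 602, 677 and 614 CPM in the libraries labelled ΔTUT4/7 (log2 fold change 0.07 ± 0.05 SE, adjusted p = 0.25). The log2 fold change was -0.06 ± 0.05 for RPL13AP5 (adjusted p = 0.327) and -0.04 ± 0.04 for RPL7AP30 (adjusted p = 0.434). RPS3AP26 had 398, 444 and 322 CPM in WT and 336, 344 and 296 CPM in the others, which overlapped (log2 fold change -0.25 ± 0.14, adjusted p = 0.20). Without WT replicate 3, RPS3AP26 was at -0.38 with an adjusted p of 0.000269. It also passed with limma-voom (adjusted p = 0.0428) and with the replicate number as a block (-0.25, adjusted p = 0.000357). Replicate numbers did not pair the libraries, so the block adds no support. RPL13AP5 and RPL7AP30 passed the test as lower with library size alone, at -0.18 and -0.16, with upper-quartile factors (adjusted p = 0.01 and 0.00866) and with a filter at a mean of 50 counts (adjusted p = 0.0357 and 0.0392).

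Among called members the 6 largest increases were those of RPS26P6, RPL5P12, RPL7P49, RPL10P9, RPL10P16 and RPL15P18. Of these, RPL5P12 and RPL7P49 were under 50 counts in WT and members only through the other group. RPS26P6 is a copy of RPS26, a small-subunit protein gene, on chromosome 8, and 0.733% of its windows were its own. It had 1.88, 3.46 and 0.913 CPM in WT and 7.30, 4.69 and 9.19 CPM in the libraries labelled ΔTUT4/7. The groups did not overlap, but each spread widely, and the 3.43-fold increase had a log2 fold change of 1.78 ± 0.54 SE (adjusted p = 0.0446). The call was lost without WT replicate 1 (1.72, adjusted p = 0.126), ΔTUT4/7 replicate 1 (1.75, adjusted p = 0.118) or ΔTUT4/7 replicate 3 (1.56, adjusted p = 0.106). It was also lost with library size alone (adjusted p = 0.058), upper-quartile factors (adjusted p = 0.0562), no count filter (adjusted p = 0.0522) and the replicate number as a block (adjusted p = 0.155). The log2 fold change was 2.41 without WT replicate 2 and 1.36 without WT replicate 3. RPS26 itself rose from 28.4 ± 0.990 to 56.4 ± 2.16 CPM (SD, n = 3; log2 fold change 0.99 ± 0.06 SE, adjusted p = 9.26e-12).

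Both copies of RPL10, a gene of the large subunit on the X chromosome, rose with it. RPL10P9 (chr5:168616352-168616996) had 19.4, 19.1 and 18.0 CPM in WT and 30.2, 33.3 and 28.9 CPM in the libraries labelled ΔTUT4/7 (log2 fold change 0.71 ± 0.08 SE, adjusted p = 6.71e-08). RPL10P16 (chr19:12643275-12643919) had 97.6, 92.9 and 118 CPM against 156, 168 and 152 CPM (0.62 ± 0.09 SE, adjusted p = 0.000232). For both, all values in WT were below all values in the other group, and RPL10 had a log2 fold change of 0.80 ± 0.04. RPL10P16 overlaps an exon of an unnamed coding gene model on the same strand, listed as AC010422.3 at 0.45 to 0.50 CPM on average in the groups.

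RPL15P18 (chr13:100150481-100151092) and RPL7P49 (chr17:76430417-76431124) lie in introns of genes that were higher as well. RPL15P18, in PCCA on the opposite strand, had 6.36, 4.54 and 3.91 CPM in WT and 8.11, 7.17 and 6.89 CPM in the libraries labelled ΔTUT4/7, without overlap. Its log2 fold change was 0.61 ± 0.16 (SE; adjusted p = 0.00254), against 0.17 for its parent RPL15 and 0.30 for PCCA. RPL7P49, in UBE2O on the same strand, had 1.93, 1.69 and 1.37 CPM in WT and 2.65, 2.58 and 2.91 CPM in the others. These did not overlap, and its log2 fold change was 0.72 ± 0.21 (SE; adjusted p = 0.00656), against 0.38 for RPL7 and 0.56 for UBE2O, an E2/E3 hybrid ubiquitin ligase. The parts of parent and surrounding gene in these changes were not tested.

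The 6 largest decreases among called members were those of RPL7P50, RPL32P29, RPS12P23, RPS3AP34, RPL7AP66 and RPL34P27. The first 4 were under 50 counts in the libraries labelled ΔTUT4/7 and members only through WT. RPS12P23 (chr13:21094315-21094714), outside other genes, had 4.07, 3.54 and 2.84 CPM in WT and 0.999, 1.65 and 1.48 CPM in the libraries labelled ΔTUT4/7. The groups were apart (log2 fold change -1.36 ± 0.23 SE, adjusted p = 3.12e-05), and RPS12, a small-subunit gene, was at -0.91 ± 0.10. RPL34P27 (chr13:24988577-24988925) had 6.06, 5.85 and 5.09 CPM in WT and 3.53, 2.83 and 2.60 CPM in the others, again apart. It fell by 0.90 on the log2 scale (adjusted p = 6.70e-05), against -0.47 for RPL34. Neither member shared a window with its parent.

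RPL7AP66 (chr18:39334872-39335672) lies in an intron of the lncRNA gene MIR924HG on the same strand. It had 5.09, 8.31 and 10.1 CPM in WT and 3.37, 3.71 and 5.31 CPM in the libraries labelled ΔTUT4/7, so the groups overlapped. The log2 fold change was -0.96 ± 0.28 (SE; adjusted p = 0.0191), while its parent RPL7A was at 0.00 ± 0.04 and MIR924HG at -0.93 ± 0.08. Without WT replicate 2 (adjusted p = 0.0622), ΔTUT4/7 replicate 1 (adjusted p = 0.0634) or ΔTUT4/7 replicate 2 (adjusted p = 0.0769) the call was lost.

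To ask whether a member changed apart from its parent, the member's count was divided by the parent's in each library and the log2 ratio was tested over all 620 processed pseudogenes with a parent in the table and a mean count of 50 or more. The ratio was higher in 1 member and lower in 5 of the 89, against 1.94% and 6.61% of the 620 pairs. The number with a higher ratio was 0 without ΔTUT4/7 replicate 2, 3 without WT replicate 1 and 2 without WT replicate 2. The median change of the log2 ratio over the members was 0.00. The counts over the 89 include members chosen through a single group, so they are a description. Among the 80 members with both group means at 50 or more, 2 ratios were called, each of them lower. The 620 pairs were not split in this way, so the members as a group were not compared with them. The 6 members with a changed ratio were RPL5P12, RPL7P50, RPL32P29, RPS3AP34, RPS26P19 and RPL7P9. The first 4 of these were chosen through the group in which they are high, which leaves RPS26P19 and RPL7P9 among the 80 with both group means at 50 or more.

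RPL7P50 (chr19:6593329-6594055) showed the largest change of ratio. It had 4.38, 4.73 and 5.80 CPM in WT and 1.44, 1.55 and 1.23 CPM in the libraries labelled ΔTUT4/7. The groups were well apart, and it fell by 1.83 on the log2 scale (SE 0.19, adjusted p = 5.11e-08) while RPL7 rose by 0.38. As a percentage of the RPL7 count it went from 35.6 ± 3.64 to 7.73 ± 0.946 (SD, n = 3; change of the log2 ratio -2.19 ± 0.18 SE, limma adjusted p = 1.53e-05). RPL7 was given only 1.87% of the summed CPM of its family, and that sum overlapped between the groups. The percentages are thus of a small count and not of all RPL7 mRNA. RPL7P50 lies in an intron of CD70, the gene of a TNF family ligand, on the opposite strand. CD70 itself had 2.09 ± 0.343 CPM in WT and 0.505 ± 0.0904 CPM in the others (SD, n = 3), and its log2 fold change was -2.01 ± 0.28 SE (adjusted p = 2.70e-06). Read strand was not stated, so reads of either strand may enter both counts.

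RPL32P29 (chr14:49577392-49577794) went from 3.77, 4.04 and 3.59 CPM in WT to 1.31, 1.24 and 1.74 CPM in the libraries labelled ΔTUT4/7. The groups did not overlap, and the log2 fold change was -1.42 ± 0.20 (SE; adjusted p = 3.67e-06). Its parent RPL32, a large-subunit gene, rose by 0.61 (adjusted p = 1.90e-10), and the log2 ratio changed by -2.02 ± 0.21 (limma adjusted p = 0.000105). All 328 of its windows were in a transcript of RPS29, in whose span it lies on the same strand. RPS29, the gene of a small-subunit protein, was at -0.20 ± 0.19 (adjusted p = 0.433), with 61.3 CPM in WT replicate 3 against 40.5 and 41.8 CPM in the other WT libraries.

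RPS3AP34, on chromosome 8, went from 3.56, 3.73 and 2.54 CPM to 1.498, 1.39 and 0.919 CPM, without overlap. It fell by 1.33 on the log2 scale (SE 0.24, adjusted p = 4.84e-05), more than RPS3A at -0.34, and the log2 ratio changed by -1.02 ± 0.23 (limma adjusted p = 0.0152). The lncRNA gene AC068587.4, in an intron of which it lies, was at -0.79 ± 0.06, and the median of the 20 nearest expressed genes was -0.70. The call on the ratio was lost without WT replicate 1 (adjusted p = 0.0776), WT replicate 2 (adjusted p = 0.0575) or ΔTUT4/7 replicate 3 (adjusted p = 0.0537).

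RPL5P12 was the member with a higher ratio. It was a member only through the libraries labelled ΔTUT4/7, so the values that follow are a description rather than a test. It had 2.04, 1.77 and 1.96 CPM in WT and 3.62, 5.10 and 3.68 CPM in the libraries labelled ΔTUT4/7, with no overlap. The 2.14-fold increase (log2 fold change 1.10 ± 0.20 SE, adjusted p = 6.03e-05) stood beside 0.17 ± 0.05 for RPL5. As a percentage of the RPL5 count it rose from 0.295 ± 0.0386 to 0.561 ± 0.0961 (change of the log2 ratio 0.92 ± 0.19, limma adjusted p = 0.00962). Without ΔTUT4/7 replicate 2 this change was 0.78 with an adjusted p of 0.0659. RPL5P12 lies in an intron of STPG2 on the opposite strand, a gene with at most 9 counts in any library. The median of the 20 nearest expressed genes was -0.70.

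RPS26P19 and RPL7P9 were called on the ratio although their own levels did not pass the test. RPS26P19 (chr2:127846736-127847084), the most divergent member at 79.0% identity, had 6.36, 7.92 and 5.09 CPM in WT and 6.71, 7.32 and 5.72 CPM in the others, which overlapped (log2 fold change 0.03 ± 0.16 SE, adjusted p = 0.868). RPS26 rose by 0.99, and the log2 ratio changed by -0.95 ± 0.19 (limma adjusted p = 0.00762). All 274 windows of RPS26P19 were in a transcript of POLR2D, which encodes a subunit of RNA polymerase II and was at 0.08 ± 0.05. As a percentage of the RPL7 count, RPL7P9 went from 4300 ± 57.7 to 3475 ± 188 (SD, n = 3; change of the log2 ratio -0.31 ± 0.06, limma adjusted p = 0.00962). This ratio too is to the small count given to RPL7, 1.87% of the summed CPM of its family. The call on RPL7P9 was lost without ΔTUT4/7 replicate 1 (adjusted p = 0.076) or replicate 3 (adjusted p = 0.0701), and with limma without a trend (adjusted p = 0.109).

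**Figure D3:**
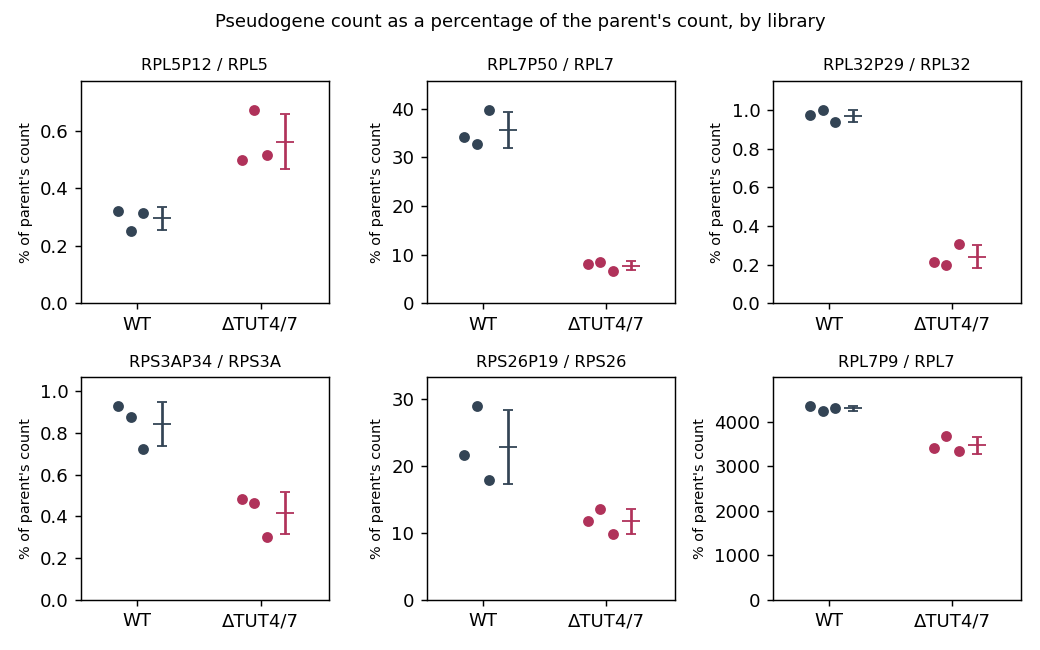
Count of each of the 6 members with a changed ratio as a percentage of its parent's count in each library (points), with the mean ± SD of 3 libraries beside them, for WT and the libraries labelled ΔTUT4/7. RPL7P50 fell from 35.6% to 7.73% of the RPL7 count, whereas RPL5P12 rose from 0.295% to 0.561% of the RPL5 count. The RPL7 count was only 1.87% of the summed CPM of its family.

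Across the 16 members that shared no window with their parent and lay in the span of another tested gene, the log2 fold change correlated with that of this gene at r = 0.568 and with that of the parent at r = -0.167. These values are a description of only 16 genes and not a test. RPL7P50 at -1.83, in CD70 at -2.01, is by far the most extreme pair. That pair weighs heavily on r with the surrounding gene, and r without it was not computed. RPL7P50, RPL32P29, RPL7P49 and RPS4XP17 among the 16 reached the minimum through a single group, and RPL7P21 has RPL7 as its parent by symbol alone. Over all 40 members with such a gene r was 0.463, and over all 89 members r with the median of the nearest genes was 0.212. Of the 42 members inside another gene's span, 12 (28.6%) were higher and 6 (14.3%) lower. Of the 47 outside, 7 (14.9%) were higher and 10 (21.3%) lower. The shares of all genes tested were 28.6% higher and 29.0% lower. The difference between members inside and outside was not tested.

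Families with 3 or more members showed how far copies of 1 parent moved together. In these families RPS3AP34, RPS4XP17, RPL5P12, RPL7P49 and RPL7P50 reached the minimum through a single group, so their changes are a description. All 3 copies of RPL3 were lower, with log2 fold changes from -0.39 to -0.24 beside -0.31 for RPL3, and the 3 stayed lower under each scaling tried. Of the 4 copies of RPS3A, 3 were lower and RPS3AP26 did not pass the test, again under each scaling. Summed with its copies, RPS3A went from 1536 ± 56.8 to 1208 ± 27.4 CPM. RPS3AP6 alone took more of this sum than RPS3A, which held 25.2% of it.

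The 7 copies of RPS4X shared at most 2.96% of their windows with it. RPS4XP11 and RPS4XP17 were called higher and the other 5 did not pass the test, with log2 fold changes over the 7 from -0.22 to 0.50. Under library size alone or upper-quartile factors none of the 7 was higher and 1 was lower. RPS4XP11 had 81.2, 87.4 and 74.6 CPM in WT and 91.4, 97.9 and 92.2 CPM in the libraries labelled ΔTUT4/7 (log2 fold change 0.21 ± 0.06 SE, adjusted p = 0.00331). The groups did not overlap, and RPS4X was at 0.19 ± 0.05.

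Copies of RPL5 went both ways. RPL5P12 and RPL5P18 were higher, RPL5P34 was lower and 4 did not pass the test, over a range from -0.39 to 1.10. RPL5P34 had 15.32, 16.4 and 20.3 CPM in WT and 13.4, 15.26 and 14.3 CPM in the libraries labelled ΔTUT4/7. The groups were only just apart, and its log2 fold change was -0.29 ± 0.10 (SE; adjusted p = 0.0224). With library size alone 1 copy of RPL5 was higher and 2 were lower, and RPL5 at 0.05 did not pass the test.

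Among the 5 members with an RPL7 symbol, RPL7P1, RPL7P49 and RPL7P21 were higher, the last of which is no copy of the RPL7 transcript. RPL7P50 was lower and RPL7P9 did not pass the test. RPL7P49 and RPL7P50 reached the minimum through a single group. With library size alone 2 of the 5 were higher and 1 lower. Of the 6 copies of RPL7A, whose summed count was 185% of that of the parent, RPL7AP66 was lower and the other 5 did not pass the test, at -0.08 to 0.07. With library size alone, 3 of the 6 were lower. None of the 5 copies of RPS15A and none of the 4 copies of RPL23A passed the edgeR test, and neither did their parents. With library size alone or upper-quartile factors 1 copy of RPS15A was lower. Log2 fold changes ran from -0.40 to 0.74 for the former and from -0.19 to 0.00 for the latter.

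**Figure D4:**
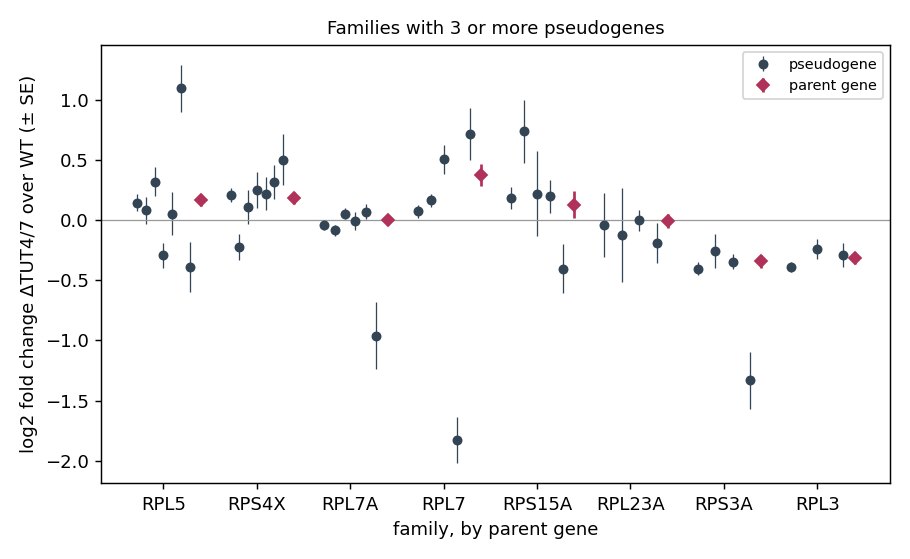
Log2 fold change (± SE, libraries labelled ΔTUT4/7 over WT, 3 libraries per group) of every member of the 8 families with 3 or more members (circles), with the parent gene beside them (diamonds). Copies of RPL3 lie close to their parent, from -0.39 to -0.24, while members with an RPL7 symbol run from -1.83 to 0.72. Both ends of that range, RPL7P50 and RPL7P49, are members that reached the minimum count through a single group.

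The members identical to their parent could not be measured apart from it. RPL39P3 had 18.6, 19.1 and 37.4 CPM in WT and 24.4, 34.1 and 30.7 CPM in the libraries labelled ΔTUT4/7. WT replicate 3 was above every other library, so the groups overlapped (log2 fold change 0.21 ± 0.36 SE, adjusted p = 0.66), whereas RPL39 was called higher at 0.54 ± 0.09. RPL21P16 had 260, 314 and 320 CPM against 284, 340 and 279 CPM (adjusted p = 0.945), and RPS28P7 had 2.49, 2.23 and 4.34 CPM against 1.06, 2.94 and 2.45 CPM (adjusted p = 0.295). RPL21 and its copies, added together, had 445 ± 30.6 and 464 ± 42.4 CPM. How the reads of an identical pair were divided cannot be told apart from the levels of the pair.

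RPL22P1, a copy of RPL22 in an intron of MECOM, had 142, 119 and 184 CPM in WT and 76.3, 98.7 and 78.8 CPM in the libraries labelled ΔTUT4/7, without overlap. It fell by 0.82 on the log2 scale (SE 0.21, adjusted p = 0.0316), beside -0.59 for RPL22 and -0.70 for MECOM.

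At the threshold of the choice, the members just inside were RPL35AP32 with a mean count of 51.4 and RPS4XP17 with 52.4. The genes just outside were RPL7P22 with 48.7 and RPL22P3 with 47.8.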

How the data were processed

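Total RNA of HEK 293T cells, depleted of ribosomal RNA, was sequenced by the authors in paired-end reads of 76 bases from 3 WT and 3 TENT3A/B double knockout samples. Per the labels, STAR 2.7.3a and Partek 10.0.22 were used on hg38. The authors aligned the reads and quantified Ensembl genes with an expectation-maximisation model, and the deposited table holds these estimated counts per gene. Such a model divides reads that fit several genes, which bears on pseudogenes more than on other genes. Strand setting and treatment of multiply aligned reads were not given in the sources used here. A second deposited table holds the authors' own comparison (p-values, FDR, ratios, fold changes and group means) and was not used.

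Estimated counts were rounded, genes with a largest count above 12 were kept (23952), and groups were compared with edgeR 4.0.16 (R 4.3.3; TMM, glmQLFit robust, glmQLFTest, no covariate), with p-values adjusted by Benjamini-Hochberg across these genes at FDR 0.05. Adjusted p-values are from this test unless limma is named. CPM are relative to TMM-scaled library sizes. The standard error was taken from the F statistic. Ratios, as log2((member + 0.5)/(parent + 0.5)) per library, were tested with limma 3.58.1 (trend, robust) over 620 pairs. The parent is the symbol before the final P and number. Both fits were tested on simulated data.

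Member coordinates matched GENCODE 44 for all 89, after 1 base was taken off each deposited end. Windows of 76 bases, alignments and reading frames were taken from hg38 and GENCODE transcripts. The gene around a member is the overlapping gene with the highest mean count in the table, small RNA genes left out. The nearest expressed genes are up to 10 coding or lncRNA genes on either side that reach a mean of 50 counts.

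The members, gene lists and rules were chosen with earlier results of these data known. Named genes are the 8 members with the highest mean count, the 6 largest increases and decreases among called members, up to 4 largest and 4 smallest changes of the ratio, their parents, the 2 genes on either side of the minimum, families of 3 or more and the genes around named members. RPL21P16, RPL39P3, RPS28P7, RPS4XP11, RPL7P21, RPL7P1, RPL22P1, RPL5P34 and RPL5P18, the genes RPL7L1 and MECOM, and members named by whole counts were added after their values or sequences were seen. The alternatives run were 3 other scalings (RLE, upper-quartile, and none beyond library size), DESeq2 1.42.0, limma-voom, other count filters, unrounded counts, a block for the replicate number, leaving out single libraries, and other choices of members and pairs. Values of 1 member and its parent are not reported here, though both are in the counts over all members.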

Additional observations from a re-analysis of the deposited data

How the results depend on the processing

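The 19 members called higher, 16 called lower, 2 and 4 at 2-fold or more, and the medians were recomputed under each alternative. Members at 2-fold or more higher were 0 with library size alone and with upper-quartile scaling, and 1 without a count filter and with the replicate number as a block. The median log2 fold change was -0.041 with library size alone. Restricting the members gave 10 lower at a minimum of 200 counts, 7 higher and 10 lower outside other genes, 9 and 8 with at most 10% of windows in the parent, and 10 and 8 with over 10%. The ratio was higher in 3 and lower in 8 with pairs of 20 or more counts, and higher in 2 with the replicate block. Leaving out each library gave 17 to 23 higher, 10 to 18 lower, 1 to 2 at 2-fold or more higher, and 0 to 3 with a higher ratio. Replicate numbers did not pair the libraries (correlations of deviations 0.0658, 0.0127 and -0.0423), and the block gave 20 higher and 16 lower.

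None of the called members tested under every alternative (those named by the fixed rule) changed direction. Uncalled values changed sign for RPL7P9 (-0.041 with library size alone, -0.026 with upper-quartile scaling), for RPL35AP32 (-0.045 without WT replicate 2, up to 0.70 without WT replicate 3) and for RPS26P19 (-0.082 with library size alone, -0.067 with upper-quartile scaling, -0.032 with only genes of a mean count of 50 or more, -0.040 without ΔTUT4/7 replicate 2, and -0.13 when WT replicate 3 was left out, with 0.21 as the highest value when a library was left out). RPS4XP17 (log2 fold change 0.50, adjusted p = 0.0493) was lost under most alternatives, with adjusted p-values up to 0.183. Members under 100 counts rest on few reads, and members identical to a parent cannot be measured apart from it at any depth.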

Other observations

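Below the minimum, 412 more genes matched the same symbol pattern, of which 191 could be tested. Of these, 14 (7.33%) were higher and 22 (11.5%) lower in the libraries labelled ΔTUT4/7, with a median log2 fold change of -0.08. The shares of all genes tested, most of which had more counts, were 28.6% higher and 29.0% lower. A separate annotation class, transcribed processed pseudogenes, held 26 genes with the same kind of symbol, of which 19 were tested. Among those 19, 3 (15.8%) were higher and 5 (26.3%) were lower.

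Some members shared windows with coding genes other than their parent. RPL12P16 lay wholly within a transcript of NBEAL1, and RPL12P4 shared 169 of its 422 windows with it. RPS11P5 lay wholly within a transcript of GOLGA3 on the opposite strand, RPS4XP17 within one of VPS53, and 11.3% of the windows of RPS3AP26 were in SH3D19 on the opposite strand. The log2 fold changes were 0.14 for RPL12P16 and 0.03 for RPS11P5, neither past the test, against -0.26 for NBEAL1 and 0.66 for GOLGA3.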
